A study of Mus musculus with 8 samples.

Results

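Lgr5+T8hi basal cells of the mouse mammary gland were compared with Lgr5+T8- basal cells across all genes, using 4 of the 8 RNA sequencing libraries of the series. The libraries were chosen by their titles, 2 for Lgr5+T8hi and 2 for Lgr5+T8-. Cells of both groups were sorted by flow cytometry from the mammary glands of untreated C57BL/6 females aged 10 weeks that carried the Lgr5-GFP-IRES-CreERT2 allele, a knock-in that places green fluorescent protein and a tamoxifen-inducible Cre under the Lgr5 locus. T8 stands for Tspan8, and the groups differ in whether its expression was high (T8hi) or negative (T8-), while both were positive for Lgr5. The other 4 libraries, Lgr5-T8hi and Lgr5-T8- cells of the same strain, allele and age, were not compared themselves. They entered the filter on low counts, the normalization, and the estimates of the batch difference and of the spread between libraries. Replicate 1 of each group belongs to batch 1 and replicate 2 to batch 2, per the labels. Whether the replicates of a group were taken from separate mice, and how many mice were pooled, is not in the labels; p-values therefore rest on library-to-library spread that may be technical.

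The mammary duct has an inner luminal layer, whose cells make milk or sense hormones, and an outer basal layer, whose mature cells contract to eject milk. Basal cells carry keratins 5 and 14 and the transcription factor p63, and many of them also carry smooth-muscle proteins. Lgr5 is a receptor for R-spondins, secreted proteins that strengthen Wnt signalling, and it marks stem cells in several epithelia. Tspan8 is a tetraspanin, one of a family of membrane proteins that gather integrins and other receptors into membrane microdomains.

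Within the Lgr5+ basal compartment, Lgr5+T8hi cells had lower transcript levels of 13 of 26 smooth-muscle contractile genes and higher levels of some luminal, milk protein and interferon-stimulated genes than Lgr5+T8- cells. Some secreted Wnt inhibitors, tight junction genes and matrix-remodelling genes were also among the genes that rose. The keratin genes Krt5 and Krt14 and Lgr5 itself did not pass the test. Most tested markers of fibroblasts, endothelial cells, leukocytes and red blood cells rose in the same libraries.

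Of 27164 genes in the tables, 16526 passed the filter on low counts and were tested with edgeR's quasi-likelihood test with batch as a block. At an adjusted p threshold of 0.05, 1201 genes (7.27%) were higher and 359 genes (2.17%) were lower in Lgr5+T8hi than in Lgr5+T8- cells, 1560 in all (9.44%). Among them, 878 (5.31% of those tested) were higher by at least 2-fold and 53 (0.321%) were lower by at least 2-fold. The median log2 fold change of all tested genes was -0.05. The shares of 7.27% higher and 2.17% lower are the background for the list counts of this fit at this threshold. They are not the background for counts from other fits or at an unadjusted p, which called other numbers of genes in all. A list count that moves between fits is therefore not by itself a result about the list. Changes below are log2 fold changes ± standard error, and levels are counts in each 1000000 (CPM), with replicate 1 before replicate 2 of each group. The standard error was derived from the test, as the size of the change over the square root of its F statistic. It rests on the spread fitted over all 8 libraries. Total gene counts were 36175181 and 24662492 in the Lgr5+T8hi libraries and 33976135 and 24571300 in the Lgr5+T8- libraries, so that 3 counts, the limit that a count of 0 allows, came to at most 0.120 CPM (counting error only). Replicates correlated across genes at r = 0.989 for Lgr5+T8hi and r = 0.982 for Lgr5+T8-, and the log2 differences of the 2 batches correlated at r = 0.669 (genes are not independent replicates). The calls rested on few libraries. Leaving out Lgr5+T8hi replicate 1 gave 711 higher and 89 lower genes. Leaving out its replicate 2 gave 544 and 83, and leaving out replicate 2 of Lgr5+T8- gave 633 and 104. The lower genes also numbered 228 when Lgr5-T8hi replicate 1 was dropped, and 559 or 733 when replicate 1 or 2 of Lgr5-T8- was. All 1560 called genes kept their direction in each of these fits. Of the gene lists below, 2 had only 1 or 2 higher members and 13 had only 1 or 2 lower members, and each of these small counts changed in at least 1 fit without a library. List medians from -0.21 to 0.20 moved by over 1.5 times or changed sign in at least 1 such fit and are values near 0.

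**Figure D1:**
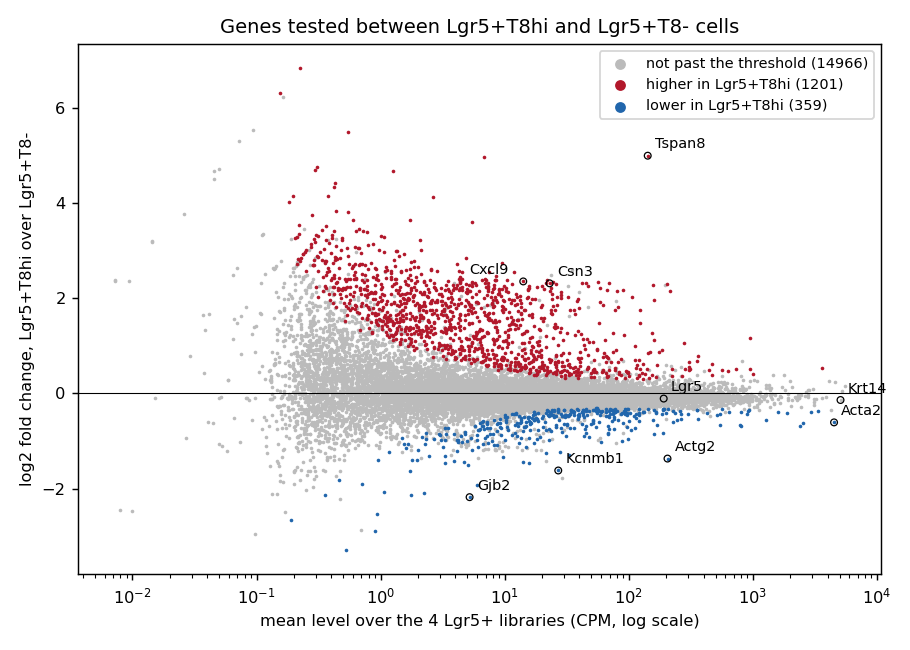
Log2 fold change of Lgr5+T8hi over Lgr5+T8- cells (vertical axis) against the mean level over the 4 Lgr5+ libraries in CPM (horizontal axis, log scale) for the 16526 genes tested. Each point is a gene; 1201 higher and 359 lower genes at an edgeR adjusted p under 0.05 are coloured, and the higher genes reach larger changes than the lower genes.

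The sort genes came first. Tspan8 (chromosome 10, 115816817 to 115849893, GRCm38.p6) stood at 289 and 261 CPM in Lgr5+T8hi, against 10.6 and 6.82 CPM in Lgr5+T8- libraries. Both sorted groups were thus far apart in the gene that separated them, and transcripts were also counted in the T8- group. Lgr5 stood at 174 and 193 CPM in Lgr5+T8hi, against 185 and 212 CPM in Lgr5+T8- libraries, and the values of the groups overlapped, with a change of -0.11 ± 0.11 (edgeR adjusted p = 0.615). Its homologues did not pass the test either. Lgr4 stood at 266 and 267 CPM in Lgr5+T8hi against 230 and 250 CPM in Lgr5+T8- (0.15 ± 0.09, edgeR adjusted p = 0.388), and Lgr6 at 58.2 and 89.5 CPM against 64.3 and 127 CPM (-0.33 ± 0.13, edgeR adjusted p = 0.156). Without Lgr5+T8- replicate 1 the adjusted p of Lgr6 was 0.0325.

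The basal identity of both groups was checked with 20 basal epithelial markers, of which 2 were higher (10.0%, against 7.27% of all genes tested) and 2 were lower (10.0%, against 2.17%), with a median change of -0.13. The change was positive in 4 and negative in 16. Their summed level was lower in both Lgr5+T8hi libraries, at 19373 and 17023 CPM against 20280 and 19761 CPM in Lgr5+T8- libraries. Per length, keratin 14 and keratin 5 transcripts were far above keratin 8 transcripts in both groups. Krt14 stood at 2920 RPKM (CPM per kilobase of gene length, mean of 2 libraries) in Lgr5+T8hi and 3203 RPKM in Lgr5+T8- cells, Krt5 at 1176 and 1226 RPKM in that order of groups, and the luminal keratin gene Krt8 at 398 and 350 RPKM. In CPM, Krt5 was at 2613 and 2537 in Lgr5+T8hi against 2616 and 2753 in Lgr5+T8- libraries, a change of -0.06 ± 0.10 (edgeR adjusted p = 0.788). Krt14 was at 5731 and 3964 CPM in Lgr5+T8hi against 6235 and 4400 CPM in Lgr5+T8-, with overlapping groups and a change of -0.14 ± 0.10 (edgeR adjusted p = 0.510). Trp63, which encodes p63, was at 173 and 227 CPM in Lgr5+T8hi against 228 and 285 CPM in Lgr5+T8- and fell by 0.37 on the log2 scale (edgeR adjusted p = 0.0295). That call was lost without any 1 of 6 libraries, the 4 Lgr5+ libraries and both Lgr5-T8hi libraries, at adjusted p values from 0.0719 to 0.236. Thy1, a cell-surface glycoprotein, rose in Lgr5+T8hi cells, at 11.4 and 13.3 CPM against 4.60 and 4.11 CPM in Lgr5+T8- cells (1.5 ± 0.20, edgeR adjusted p = 4.92e-04). The part of other cell types, counted below, in the rise of Thy1 was not tested.

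Markers of other cell types were counted before the epithelial programmes, since a sorted fraction can hold other cells. In bulk RNA, more cells of a type and more of its RNA per cell cannot be told apart. Endothelial markers rose in 17 of 20 cases, with a median change of 2.16, and their summed level was 1355 and 1317 CPM in Lgr5+T8hi against 384 and 272 CPM in Lgr5+T8- libraries. Fibroblast markers rose in 14 of 16 cases with a median of 1.84, and summed to 1931 and 2176 CPM in Lgr5+T8hi against 868 and 930 CPM in Lgr5+T8-. Leukocyte markers rose in 14 of 20 cases with a median of 2.48, and summed to 52.7 and 75.7 CPM against 24.6 and 21.6 CPM. For each of these lists both Lgr5+T8hi libraries lay above both Lgr5+T8- libraries, and no member fell (0 at an unadjusted p under 0.05, by DESeq2 and by limma-voom as well). None of the 20 endothelial or 16 fibroblast markers was at 0 in any Lgr5+ library, and the leukocyte markers Cd8a and Itgax were at 0 in Lgr5+T8- replicate 1 alone. The part of such transcripts in the other results was not tested.

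Pericyte markers rose in 8 of 10 cases (median 1.55), but their sums overlapped, at 476 and 396 CPM in Lgr5+T8hi against 429 and 265 CPM in Lgr5+T8- libraries. The 5 tested markers of red blood cells rose in 4 cases (median 3.30) and summed to 24.0 and 29.8 CPM in Lgr5+T8hi against 4.35 and 2.15 CPM in Lgr5+T8-. Adipocyte markers rose in 3 and fell in 1 of 7 cases, with sums of 369 and 272 CPM against 119 and 91.9 CPM, and of its 10 markers Cidec was at 0 in both Lgr5+T8- libraries. The adipocyte gene Fabp4 had 309 and 210 CPM in Lgr5+T8hi against 67.3 and 39.8 CPM in Lgr5+T8-; it rose by 2.28 ± 0.29 (edgeR adjusted p = 0.00650), a call lost without Lgr5-T8- replicate 1 (0.129) or replicate 2 (0.113). Schwann cell markers rose in 4 of 12 cases (sums 492 and 386 CPM against 405 and 318 CPM; at most 2 without any 1 of the Lgr5+ libraries), and epidermal keratinocyte markers rose in 3 and fell in 1 of 16 cases (sums 354 and 255 CPM against 270 and 289 CPM; 1 rose without Lgr5-T8hi replicate 1, Lgr5+T8- replicate 1 or either Lgr5+T8hi library). The endothelial count was 6 or 7 without Lgr5+T8hi replicate 1 or 2, and 6 or 8 when Lgr5-T8- replicate 1 or 2 was left out, and the leukocyte count was 7 without either replicate 2 of the Lgr5+ groups, while the fibroblast count stayed at 12 to 14 in all 8 fits.

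**Figure D2:**
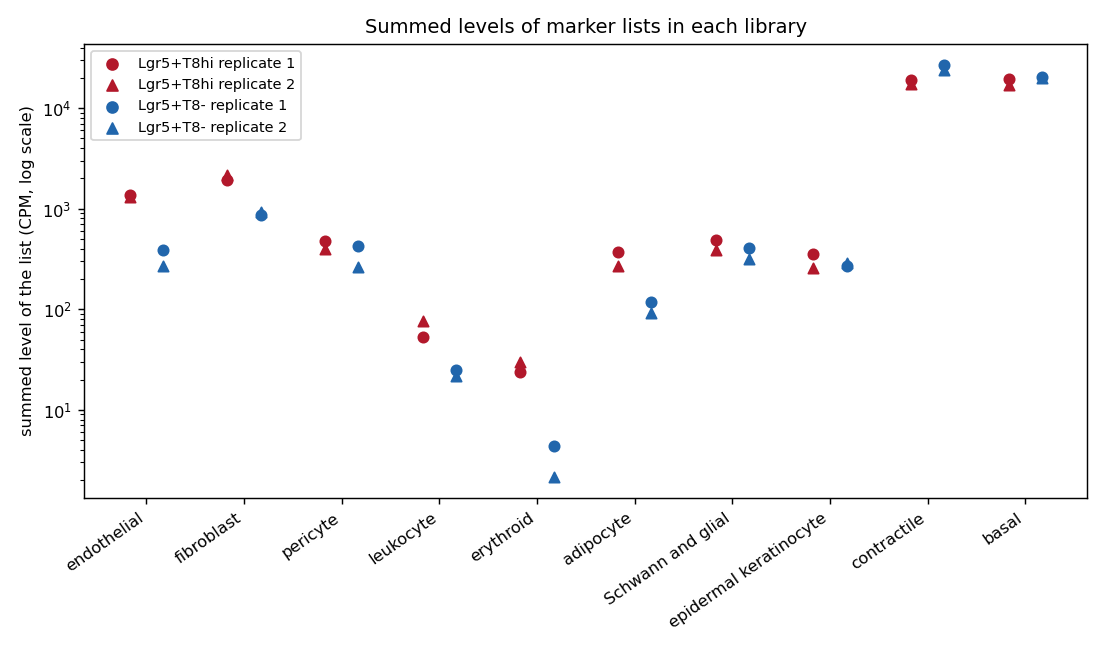
Summed CPM (log scale) of the marker lists of 8 other cell types and of the contractile and basal lists in each of the 4 Lgr5+ libraries, with Lgr5+T8hi left of Lgr5+T8- and replicates 1 and 2 marked by shape. Endothelial sums were 1355 and 1317 CPM in Lgr5+T8hi against 384 and 272 CPM in Lgr5+T8-, and contractile sums were 19037 and 17244 CPM against 27073 and 24084 CPM.

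Col1a2, a chain of type I collagen, was at 232 and 278 CPM in Lgr5+T8hi against 65.9 and 64.5 CPM in Lgr5+T8- libraries and rose by 1.96 ± 0.13 (edgeR adjusted p = 2.21e-05). Ptprc, which encodes the leukocyte antigen CD45, was at 5.91 and 8.51 CPM against 1.04 and 1.12 CPM (2.72 ± 0.25, edgeR adjusted p = 4.80e-05). Erg, an endothelial transcription factor, was at 14.8 and 12.1 CPM against 3.78 and 2.83 CPM (2.02 ± 0.18, edgeR adjusted p = 3.86e-05). In all 3 genes both Lgr5+T8hi libraries lay above both Lgr5+T8- libraries, as was the case for 18.2% of all genes tested.

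Where the 4 Lgr5+ libraries averaged 5 CPM or more, the largest increases after Tspan8 were of Ighm, Hbb-b1, Sema3g, Igf2, Thbs4, Il33, Cadm3, Lyz2, Fam107a, Zeb2 and Tie1. Ighm, the constant region of immunoglobulin M, was at 15.9 and 10.6 CPM in Lgr5+T8hi against 0.504 and 0.319 CPM in Lgr5+T8- libraries and rose by 4.97 ± 0.43 (edgeR adjusted p = 1.90e-04). The beta-globin gene Hbb-b1, whose near-identical copies make its count uncertain, rose by 3.60 ± 0.35, and Lyz2, the lysozyme of myeloid cells, by 2.39 ± 0.32 (edgeR adjusted p = 1.88e-04 and 0.00190). Sema3g, a secreted semaphorin, was at 10.3 and 23.3 CPM against 1.89 and 2.91 CPM (2.73 ± 0.22, edgeR adjusted p = 2.98e-05). Igf2, an insulin-like growth factor, was at 19.2 and 21.7 CPM against 3.94 and 2.91 CPM (2.55 ± 0.30, edgeR adjusted p = 0.00181). Thbs4, a matrix thrombospondin, rose by 2.54 ± 0.33 and Cadm3, a cell adhesion molecule, by 2.40 ± 0.18 (edgeR adjusted p = 0.00233 and 2.21e-05). The endothelial receptor Tie1 rose by 2.38 ± 0.35 (edgeR adjusted p = 0.0119), and this call was lost without either Lgr5-T8- library or either Lgr5+T8hi library (0.0725 to 0.142). Hbb-b1, Lyz2 and Tie1 are themselves members of the marker lists of other cell types. The part of other cell types in the other increases named here, that of Ighm included, was not tested.

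The largest decreases under the same rule were of Gjb2, Ryr3, Kcnmb1, St8sia6, Asb2, Actg2, Ccnb1, Col6a4, Fbn2, Pamr1, Kif18b and Popdc2. Gjb2, the gap junction protein connexin 26, was at 1.61 and 2.19 CPM in Lgr5+T8hi against 8.63 and 8.41 CPM in Lgr5+T8- libraries and changed by -2.18 ± 0.25 (edgeR adjusted p = 1.73e-04). The ryanodine receptor gene Ryr3 was at 2.71 and 2.19 CPM against 12.3 and 6.74 CPM (-1.93 ± 0.20, edgeR adjusted p = 1.15e-04). Asb2, a substrate adaptor of a ubiquitin ligase, was at 8.45 and 6.66 CPM against 20.5 and 21.0 CPM (-1.44 ± 0.16, edgeR adjusted p = 2.59e-04). In these 3 genes both Lgr5+T8hi libraries lay below both Lgr5+T8- libraries, as was the case for 18.2% of all genes tested. Col6a4, a collagen VI chain, changed by -1.29 ± 0.11 and Pamr1 by -1.23 ± 0.13 (edgeR adjusted p = 3.64e-05 and 1.04e-04). The calls of 3 others depended on single libraries. St8sia6 (-1.46 ± 0.27, edgeR adjusted p = 0.0208) was not called without Lgr5+T8hi replicate 1 or 2 or Lgr5+T8- replicate 2 (0.0524 to 0.136), Fbn2 (-1.25 ± 0.28, edgeR adjusted p = 0.0447) not without these 3 or either Lgr5-T8hi library (0.0829 to 0.218), and Popdc2 (-1.12 ± 0.17, edgeR adjusted p = 0.00243) not without Lgr5+T8hi replicate 2 (0.0612).

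Contractile genes of the smooth-muscle type, which give the basal cell its force, were the list with the largest share of lower genes. Of 26 tested, 13 were lower (2.17% of all genes tested were) and 2 were higher, 24 had a negative change, and the median was -0.38 (-0.41 in batch 1 and -0.37 in batch 2). Actg2, the gamma smooth-muscle actin (chromosome 6, 83512909 to 83536251), was at 103 and 125 CPM in Lgr5+T8hi against 254 and 338 CPM in Lgr5+T8- libraries and changed by -1.37 ± 0.10 (edgeR adjusted p = 2.21e-05). Kcnmb1, the smooth-muscle beta subunit of the large-conductance potassium channel, was at 13.3 and 13.2 CPM against 39.4 and 42.1 CPM (-1.62 ± 0.10, edgeR adjusted p = 3.92e-06). Myh11, the smooth-muscle myosin heavy chain, was at 1982 and 1718 CPM against 3378 and 2573 CPM (-0.68 ± 0.10, edgeR adjusted p = 9.68e-04). The alpha smooth-muscle actin Acta2 was at 3815 and 3329 CPM against 5675 and 5212 CPM (-0.61 ± 0.10, edgeR adjusted p = 0.00224), and calponin, Cnn1, was at 687 and 542 CPM against 1141 and 848 CPM (-0.69 ± 0.11, edgeR adjusted p = 0.00186). In all 5 genes both Lgr5+T8hi libraries lay below both Lgr5+T8- libraries, as was the case for 18.2% of all genes tested.

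The calls of Acta2 and Cnn1 were lost without Lgr5+T8hi replicate 2 (edgeR adjusted p = 0.0807 and 0.0547). The count of lower contractile genes was 8 without Lgr5-T8hi replicate 1, 6 without replicate 1 of either Lgr5+ group, 7 when replicate 2 of Lgr5+T8- was left out and 3 without Lgr5+T8hi replicate 2. The member that rose most, Des, encodes the muscle intermediate filament desmin and stands also among the pericyte markers. It was at 17.3 and 13.0 CPM in Lgr5+T8hi against 6.36 and 5.58 CPM in Lgr5+T8- libraries (1.34 ± 0.14, edgeR adjusted p = 1.26e-04). Oxtr, the receptor for oxytocin, the hormone that triggers contraction, stood at 268 and 354 CPM in Lgr5+T8hi against 324 and 377 CPM in Lgr5+T8-, with overlapping groups (-0.18 ± 0.09, edgeR adjusted p = 0.302).

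**Figure D3:**
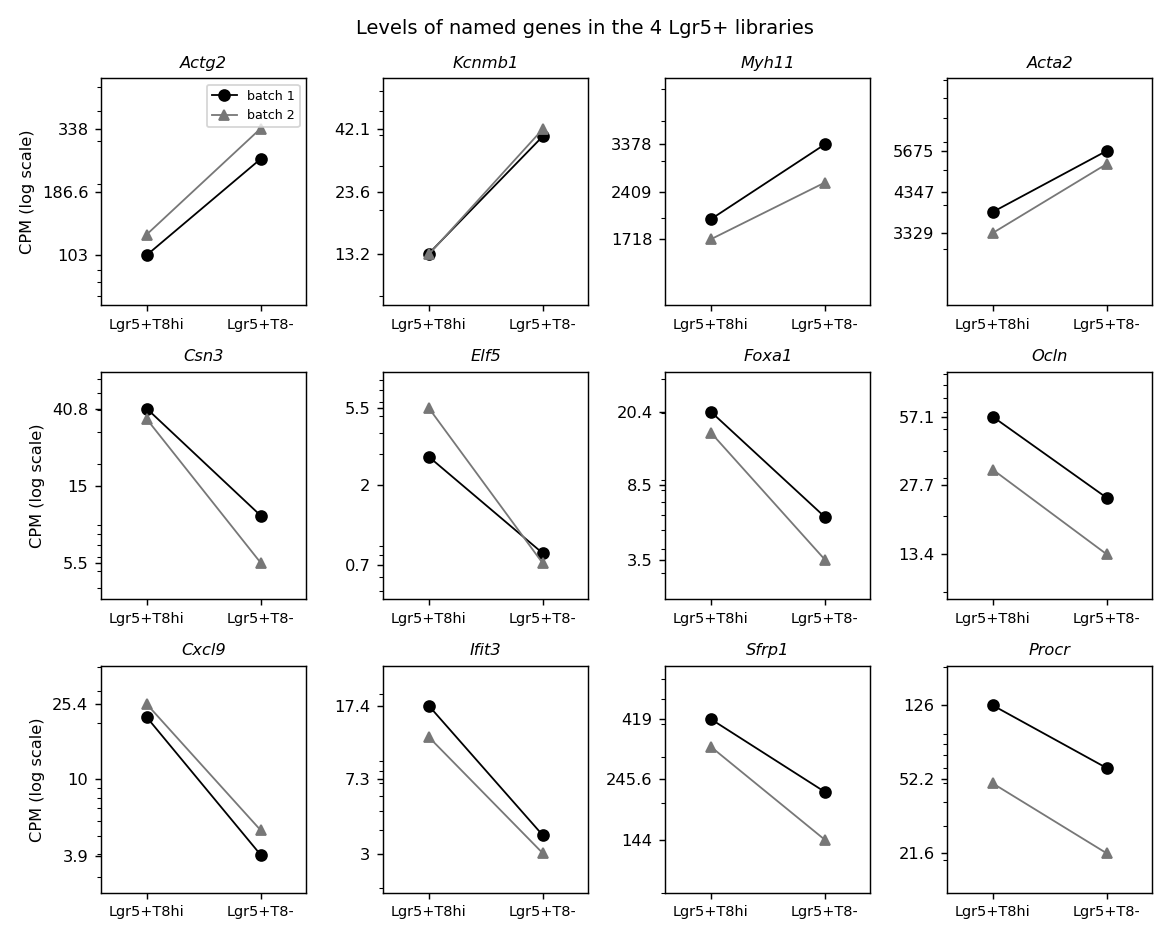
CPM (log scale) of 12 named genes in the 4 Lgr5+ libraries, with Lgr5+T8hi left of Lgr5+T8- and lines joining the libraries of a batch. The contractile genes of the upper row (Actg2, Kcnmb1, Myh11, Acta2) were lower in both Lgr5+T8hi libraries, while the luminal and milk genes of the middle row (Csn3, Elf5, Foxa1, Ocln) and the genes of the lower row (Cxcl9, Ifit3, Sfrp1, Procr) were higher within each batch.

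Of 15 regulators of luminal progenitors and milk-making alveolar cells 7 were higher (46.7%), 1 was lower and 7 did not pass, with a median of 0.83 (0.40 without Lgr5+T8hi replicate 2). Elf5, the transcription factor of alveolar fate, was at 2.91 and 5.52 CPM in Lgr5+T8hi against 0.819 and 0.718 CPM in Lgr5+T8- libraries and rose by 2.37 ± 0.28 (edgeR adjusted p = 2.15e-04). Cd14, a lipopolysaccharide co-receptor carried by luminal progenitors and also by myeloid cells, was at 44.7 and 32.9 CPM against 14.5 and 8.81 CPM (1.74 ± 0.14, edgeR adjusted p = 3.53e-05). Aldh1a3, a retinaldehyde dehydrogenase, was at 14 and 15.5 CPM against 5.83 and 3.03 CPM (1.76 ± 0.22, edgeR adjusted p = 9.52e-04), and the epithelial factor Ehf at 7.35 and 7.98 CPM against 2.2 and 2.67 CPM (1.66 ± 0.17, edgeR adjusted p = 9.50e-05). In all 4 genes both Lgr5+T8hi libraries lay above both Lgr5+T8- libraries, which held for 18.2% of all genes tested. Kit, the stem cell factor receptor, was at 12.8 and 18.4 CPM against 5.26 and 2.75 CPM and rose by 1.93 ± 0.30 (edgeR adjusted p = 0.00663), a call lost without Lgr5-T8- replicate 1 (0.0647) or replicate 2 (0.0594) and with only the 4 Lgr5+ libraries in the fit (0.0967).

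Of 19 milk protein and milk fat globule genes 13 passed the filter on low counts, 7 of them higher and 1 lower, with a median of 1.43; Csn1s1, Csn1s2a, Csn1s2b, Csn2, Wap and Olah were left out by the filter. Csn3, kappa-casein, was at 40.8 and 35.6 CPM in Lgr5+T8hi against 10.2 and 5.54 CPM in Lgr5+T8- libraries and rose by 2.31 ± 0.14 (edgeR adjusted p = 1.00e-05). Wfdc18, a whey acidic protein family member, was at 24.9 and 28.2 CPM against 7.59 and 5.54 CPM (1.99 ± 0.18, edgeR adjusted p = 1.36e-04). Btn1a1, butyrophilin of the milk fat globule membrane, was at 6.57 and 6.66 CPM against 2.33 and 1.36 CPM (1.85 ± 0.23, edgeR adjusted p = 2.82e-04), and the mucin Muc15 rose by 0.94 ± 0.11 (edgeR adjusted p = 2.24e-04). All 4 genes were higher in both Lgr5+T8hi libraries than in either Lgr5+T8- library, as were 18.2% of all genes tested. The summed level of the whole list was lower in Lgr5+T8hi within each batch, at 1625 and 1438 CPM in Lgr5+T8hi against 1781 and 1550 CPM in Lgr5+T8-, though the groups overlapped across batches. The member that fell, Lcn2, the iron-carrier-binding protein lipocalin 2, had the highest level of the list, at 920 and 678 CPM against 1189 and 893 CPM (-0.38 ± 0.10, edgeR adjusted p = 0.0313). Its call was lost without any 1 of the 4 Lgr5+ libraries or either Lgr5-T8hi library (0.0809 to 0.291). The count of higher milk genes was 4 without either Lgr5+T8hi library.

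Hormone-sensing luminal genes rose in 8 of 18 cases (44.4%), with a median of 0.78 (1.25 or 0.49 when Lgr5+T8hi replicate 1 or 2 was left out). Foxa1, a partner factor of the oestrogen receptor, was at 20.4 and 15.9 CPM in Lgr5+T8hi against 5.83 and 3.51 CPM in Lgr5+T8- libraries (1.96 ± 0.17, edgeR adjusted p = 3.54e-05). Areg, the growth factor amphiregulin, was at 41.3 and 39.1 CPM against 18.9 and 18.1 CPM (1.12 ± 0.11, edgeR adjusted p = 5.42e-05), and Ly6a, the surface antigen Sca-1, at 63.2 and 61.3 CPM against 19.6 and 11.7 CPM (1.99 ± 0.22, edgeR adjusted p = 0.00150). The receptors themselves did not pass. Esr1, the oestrogen receptor, was at 11.8 and 11 CPM against 10.2 and 7.93 CPM (0.34 ± 0.15, edgeR adjusted p = 0.213), and Pgr, the progesterone receptor, at 19.3 and 25.4 CPM against 17.9 and 22.7 CPM (0.14 ± 0.11, edgeR adjusted p = 0.528). Prlr, the prolactin receptor, had a change of 1.81 ± 0.42 that missed the threshold (edgeR adjusted p = 0.0870) and passed it without Lgr5+T8- replicate 1 (6.20e-04) or replicate 2 (0.0107). The count of higher hormone-sensing genes was 5 without Lgr5+T8hi replicate 1 or Lgr5+T8- replicate 2 and 3 without Lgr5+T8hi replicate 2.

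General luminal genes were higher in 10 of 21 cases (47.6%), with a median of 0.54 (0.32 without Lgr5+T8- replicate 2), while their keratin and adhesion genes of highest level did not pass. Ocln, the tight junction protein occludin, was at 57.1 and 32.7 CPM in Lgr5+T8hi against 24.3 and 13.4 CPM in Lgr5+T8- libraries (1.26 ± 0.12, edgeR adjusted p = 4.61e-05). The mucin Muc1 was at 33.2 and 25.0 CPM against 21.5 and 14.4 CPM (0.70 ± 0.11, edgeR adjusted p = 0.00125), and the protease inhibitor Spint1 rose by 0.62 ± 0.10 (edgeR adjusted p = 0.00245). Krt8 was at 835 and 603 CPM against 761 and 504 CPM (0.19 ± 0.10, edgeR adjusted p = 0.324), and the groups overlapped. Krt18 had a change of 0.38 ± 0.14 (edgeR adjusted p = 0.134; 0.00706 without Lgr5+T8- replicate 1), and the E-cadherin gene Cdh1 of 0.14 ± 0.11 (edgeR adjusted p = 0.545). The count of higher genes was 6 without Lgr5-T8- replicate 1 or Lgr5+T8- replicate 2 and 3 without Lgr5+T8hi replicate 2. Among 24 tight junction and polarity genes 11 were higher, with a median of 0.67 (1.05 without Lgr5+T8- replicate 1); Jam2, a junctional adhesion molecule also made by endothelial cells, was at 62.8 and 63.7 CPM against 30.1 and 26.9 CPM (1.15 ± 0.10, edgeR adjusted p = 4.59e-05). That count was 4 or 3 when Lgr5+T8hi replicate 1 or 2 was left out, and 6 without Lgr5+T8- replicate 2. The part of endothelial, fibroblast or leukocyte transcripts, whose sums were higher in the same 2 libraries, in the changes of these luminal and junction lists was not tested.

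Genes reported as mammary stem cell markers split. Of 21 tested, 5 were higher (23.8%) and 16 did not pass, and the median was -0.08. Procr, the protein C receptor, was at 126 and 49.7 CPM in Lgr5+T8hi against 59.7 and 21.6 CPM in Lgr5+T8- libraries; it was about 2-fold higher within each batch, although the groups overlapped across batches (1.13 ± 0.11, edgeR adjusted p = 5.10e-05). Nrp1, a co-receptor for semaphorins and vascular growth factors, was at 26.5 and 34.0 CPM against 5.92 and 6.86 CPM (2.24 ± 0.12, edgeR adjusted p = 2.08e-06). Foxc1, a forkhead factor, was at 52.2 and 30.3 CPM against 20.6 and 11.4 CPM (1.37 ± 0.13, edgeR adjusted p = 7.44e-05). Inpp5d, an inositol phosphatase best known from blood cells, was at 2.59 and 3.89 CPM against 0.441 and 0.478 CPM (2.78 ± 0.30, edgeR adjusted p = 1.25e-04). The fifth, the endothelial cadherin Cdh5, rose by 2.25 ± 0.37 (edgeR adjusted p = 0.0264) and lost the call without either Lgr5-T8- library, either Lgr5+T8hi library or Lgr5+T8- replicate 2 (0.0804 to 0.165). Sox9, a factor of progenitor cells, was at 431 and 289 CPM against 358 and 251 CPM and did not pass (0.24 ± 0.09, edgeR adjusted p = 0.143; 0.0273 without Lgr5-T8- replicate 1). Nrp1, Inpp5d and Cdh5 are also expressed in vessels or blood cells. The marker sums of those cells were higher in the same libraries. Their part in the rise of any of the 5 higher genes, Procr and Foxc1 included, was not tested.

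Factors of the epithelial-mesenchymal transition were higher in 7 of 18 cases (38.9%, against 7.27% of all genes tested) and lower in 1 (5.56%, against 2.17%). Their median was 0.69. Zeb1 and Zeb2, repressors of epithelial genes that fibroblasts and endothelial cells also express, were at 7.55 and 8.89 CPM (Zeb1) and 11.7 and 16.3 CPM (Zeb2) in Lgr5+T8hi, against 2.11 and 1.44 CPM and 2.99 and 2.35 CPM in Lgr5+T8- libraries. They rose by 2.19 ± 0.22 and 2.38 ± 0.28 (edgeR adjusted p = 7.89e-05 and 9.68e-04). Fn1, fibronectin, was at 218 and 216 CPM against 116 and 70.6 CPM (1.26 ± 0.15, edgeR adjusted p = 8.06e-04). These rises stood beside a fibroblast marker sum of 1931 and 2176 CPM in Lgr5+T8hi against 868 and 930 CPM in Lgr5+T8-, whose part was not tested.

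Of 34 interferon-stimulated genes tested, 16 were higher (47.1%, against 7.27% of all genes tested) and 0 lower, and DESeq2 and limma-voom each called 17 and 0. At an unadjusted p under 0.05 in edgeR 20 were higher and 0 lower, a count to which the 7.27% does not apply. The medians of the list were 0.65 in batch 1 and 0.50 in batch 2. Many of these genes are switched on by the factor ISGF3 through a promoter element, the interferon-stimulated response element (ISRE), whose core can be written as GAAA, any 2 bases and GAAA again. This core was searched on both strands in RefSeq windows of 250 bases before to 50 bases after gene starts, where it stood in 3.44% of 32851 windows (GRCm38.p6). Of the 16 higher genes 12 had a window in the table and 9 of these held the core, and of the 18 genes that did not pass 16 had a window and 5 held it. A second motif, the CArG box (CC, a run of A or T, and GG), was searched in the same windows and stood in 1.63% of them. Of the 13 lower contractile genes 10 had a window and 2 held this box. Of the 11 contractile genes that did not pass, 11 had a window and 2 held it. The 250 bases before the start of 4 higher genes that hold the core follow, with the matches in capitals (TTTC, 2 bases and TTTC are the core read on the other strand). They are Ifit3 (chr19:34583279-34583528, plus strand), Ifit1 (chr19:34640639-34640888, plus strand), Cxcl10 (chr5:92348890-92349139, minus strand) and Rsad2 (chr12:26456453-26456702, minus strand), each written 5′ to 3′ along its gene.
Ifit3: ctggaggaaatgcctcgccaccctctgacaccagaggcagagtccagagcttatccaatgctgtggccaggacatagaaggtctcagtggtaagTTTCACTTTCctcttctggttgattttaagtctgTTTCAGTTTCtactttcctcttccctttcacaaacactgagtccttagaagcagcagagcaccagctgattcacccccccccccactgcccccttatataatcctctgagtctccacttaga
Ifit1: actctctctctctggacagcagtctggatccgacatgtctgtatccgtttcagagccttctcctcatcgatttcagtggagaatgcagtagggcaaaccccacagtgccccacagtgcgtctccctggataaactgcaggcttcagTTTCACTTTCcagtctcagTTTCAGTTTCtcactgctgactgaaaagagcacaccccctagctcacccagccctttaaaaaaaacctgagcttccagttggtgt
Cxcl10: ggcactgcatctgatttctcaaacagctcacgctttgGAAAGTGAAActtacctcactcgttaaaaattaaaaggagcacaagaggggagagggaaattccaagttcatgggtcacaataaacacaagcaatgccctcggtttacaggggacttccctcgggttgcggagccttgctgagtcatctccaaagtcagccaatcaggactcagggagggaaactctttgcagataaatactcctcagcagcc
Rsad2: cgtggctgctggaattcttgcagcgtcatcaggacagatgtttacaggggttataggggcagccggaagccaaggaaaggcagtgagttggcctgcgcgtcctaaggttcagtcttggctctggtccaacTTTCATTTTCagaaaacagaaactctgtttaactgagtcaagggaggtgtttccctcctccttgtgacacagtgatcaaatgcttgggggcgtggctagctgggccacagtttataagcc
The capitals start 156 and 122 bases before the start of Ifit3, 104 and 85 bases before that of Ifit1, 213 bases before that of Cxcl10 and 120 bases before that of Rsad2. A match describes these letters only.

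Ifit1, which encodes a protein that binds viral RNA, and its relative Ifit3 rose together. Ifit1 was at 39.8 and 21.2 CPM in Lgr5+T8hi against 10.8 and 6.22 CPM in Lgr5+T8- libraries (1.82 ± 0.14, edgeR adjusted p = 2.21e-05). Ifit3, whose count may be shared with its close copy Ifit3b, was at 17.4 and 12 CPM against 3.75 and 3.03 CPM (2.11 ± 0.16, edgeR adjusted p = 2.21e-05). Rsad2, the antiviral enzyme viperin, was at 9.43 and 5.71 CPM against 2.14 and 0.757 CPM (2.40 ± 0.26, edgeR adjusted p = 1.40e-04). In all 3 genes the Lgr5+T8hi libraries lay above the Lgr5+T8- libraries, which held for 18.2% of all genes tested. The chemokine genes Cxcl9 and Cxcl10, which draw T cells, were at 21.6 and 25.4 CPM (Cxcl9) and 55.3 and 56.1 CPM (Cxcl10) in Lgr5+T8hi, against 3.94 and 5.34 CPM and 14.5 and 21.2 CPM in Lgr5+T8- libraries. They rose by 2.35 ± 0.17 and 1.66 ± 0.13 (edgeR adjusted p = 2.09e-05 and 3.53e-05). The count of higher interferon-stimulated genes was 9 without Lgr5+T8hi replicate 1. Leukocyte markers summed to 52.7 and 75.7 CPM in Lgr5+T8hi against 24.6 and 21.6 CPM in Lgr5+T8-, and their part in this group was not tested.

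Other immune genes were mixed. Among 16 antigen presentation genes 3 were higher (18.8%, against 7.27% of all genes tested). All of these were chains of the class II complex that displays peptides to helper T cells. H2-Aa was at 15.6 and 19.2 CPM in Lgr5+T8hi against 5.01 and 3.79 CPM in Lgr5+T8- libraries (1.98 ± 0.20, edgeR adjusted p = 8.86e-05), H2-Ab1 rose by 1.49 ± 0.18 and H2-Eb1 by 2.2 ± 0.25 (edgeR adjusted p = 4.09e-04 and 4.18e-04). The class I gene H2-K1, present in nearly all cells, was at 843 and 810 CPM against 948 and 891 CPM and did not pass (-0.15 ± 0.10, edgeR adjusted p = 0.433). Of 34 chemokines, interleukins and receptors 10 were higher (29.4%) and 2 lower (5.88%, against 2.17% of all genes tested), with a median of 0.39. Il6, an inflammatory cytokine, was at 175 and 82.6 CPM against 46.6 and 25.2 CPM (1.82 ± 0.14, edgeR adjusted p = 6.10e-05). Il1r1, the interleukin 1 receptor, was at 38.6 and 24.0 CPM against 12.7 and 8.21 CPM (1.58 ± 0.13, edgeR adjusted p = 3.53e-05). Il33, an alarmin of the nucleus, was at 14.1 and 14.5 CPM against 3.21 and 1.91 CPM (2.47 ± 0.20, edgeR adjusted p = 2.53e-05). For Il6 and Il1r1 the Lgr5+T8hi values differed between replicates by more than 1.5-fold, yet the lower of them was above both Lgr5+T8- values. The same order held for 18.2% of all genes tested. Leukocyte, fibroblast and endothelial marker sums were higher in the same Lgr5+T8hi libraries, and their part in the rises of these immune genes was not tested.

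**Figure D4:**
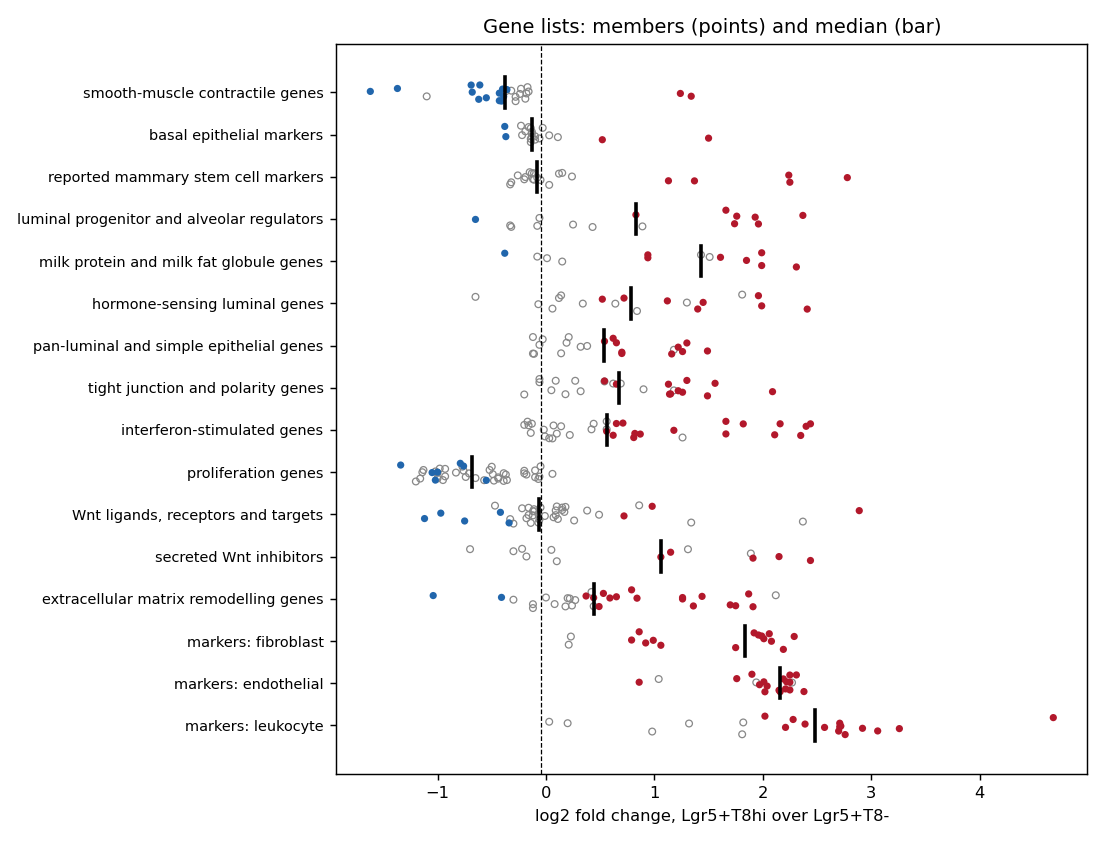
Log2 fold changes of Lgr5+T8hi over Lgr5+T8- cells for every tested member of 16 gene lists (points, with genes past an edgeR adjusted p of 0.05 filled) and the list median (bar). The dashed line marks the median of all 16526 genes, -0.05; the contractile list has a median of -0.38 and the list of proliferation genes one of -0.68, and the fibroblast, endothelial and leukocyte marker lists have medians of 1.84, 2.16 and 2.48.

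Of 44 proliferation genes tested, 7 were lower (15.9%, against 2.17% of all genes tested) and 0 higher. DESeq2 called 13 lower and 0 higher, and limma-voom 7 and 0. At an unadjusted p under 0.05 in edgeR 25 were lower and 0 higher, a count to which the 2.17% does not apply. The median was -0.68, with -0.14 in batch 1 and -1.08 in batch 2. It was -0.25 or -0.37 without replicate 2 of Lgr5+T8- or of Lgr5+T8hi. Ccna2, cyclin A2, was at 3.66 and 11.6 CPM in Lgr5+T8hi against 4.98 and 31.7 CPM in Lgr5+T8- libraries (-1.05 ± 0.25, edgeR adjusted p = 0.0337). Kif20a, a kinesin of cell division, was at 11.5 and 21.4 CPM against 15.7 and 45.5 CPM (-0.79 ± 0.15, edgeR adjusted p = 0.00573), and the mitotic factor Foxm1 at 9.77 and 16.4 CPM against 12.8 and 34.6 CPM (-0.76 ± 0.18, edgeR adjusted p = 0.0230). In all 3 genes Lgr5+T8- replicate 2 stood above the other 3 libraries, and the groups overlapped. Mki67, the gene of the proliferation antigen Ki-67, was at 20.2 and 49.9 CPM against 28.1 and 127 CPM and did not pass (-0.98 ± 0.50, edgeR adjusted p = 0.381). The count of lower genes was 0 without Lgr5+T8- replicate 2 or Lgr5+T8hi replicate 2, 2 without Lgr5+T8hi replicate 1, 11 with Lgr5-T8- replicate 1 left out and 27 with Lgr5+T8- replicate 1 left out. The calls of Ccna2 and Foxm1 were lost without either Lgr5+T8hi library or Lgr5+T8- replicate 2 (0.0902 to 0.404), and that of Kif20a without either replicate 2 (0.0993 and 0.140). Ccnb1, cyclin B1, and Kif18b, a mitotic kinesin, which stood among the largest decreases (-1.34 ± 0.33 and -1.20 ± 0.30, edgeR adjusted p = 0.0470 and 0.0363), lost the call without the same 3 libraries as Ccna2 (0.112 to 0.480).

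**Figure D5:**
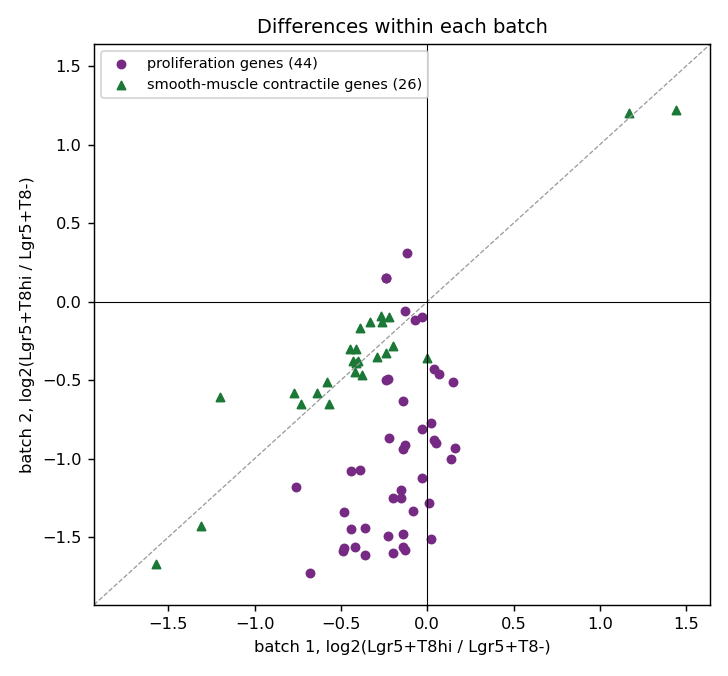
Log2 difference of Lgr5+T8hi over Lgr5+T8- CPM in batch 2 (vertical axis) against that in batch 1 (horizontal axis) for the 44 proliferation genes and the 26 contractile genes. The medians were -1.08 in batch 2 and -0.14 in batch 1 for proliferation genes, and -0.37 and -0.41 for contractile genes.

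No member of the 29 cell-cycle inhibitors and quiescence genes passed the test in either direction (median 0.08). Cdkn1a, which encodes the inhibitor p21, was at 923 and 579 CPM in Lgr5+T8hi against 854 and 540 CPM in Lgr5+T8- libraries (0.11 ± 0.09, edgeR adjusted p = 0.577). Cdkn1c, which encodes p57, was at 17.4 and 13.1 CPM against 16.2 and 6.58 CPM (0.48 ± 0.23, edgeR adjusted p = 0.295), and passed without Lgr5+T8- replicate 1 (0.00757). The 23 immediate-early and stress genes, which rise during cell dissociation, also gave 0 higher and 0 lower (median 0.10), as did 25 lipid and cholesterol synthesis genes (median -0.21). At an unadjusted p under 0.05 in edgeR the quiescence list had 0 higher and 1 lower, the immediate-early list 1 higher and 0 lower, and the lipid list 1 higher and 3 lower, and DESeq2 and limma-voom called 0 members of the 3 lists in either direction. These counts of 0 did not hold in every fit without a library. The quiescence list had 3 higher without Lgr5-T8- replicate 1, 2 higher without Lgr5-T8- replicate 2, and 2 higher and 1 lower without Lgr5+T8- replicate 1. The immediate-early list had 2 higher without Lgr5+T8- replicate 1 and 1 higher without Lgr5-T8- replicate 1, and the lipid list had 1 to 3 lower without these libraries or Lgr5-T8- replicate 2.

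Signalling genes of the Wnt pathway included higher and lower members. Of 13 secreted inhibitors tested 5 were higher (38.5%) and 8 did not pass. The inhibitors had a median of 1.06 (batch 1, 0.36; batch 2, 1.18), 0.26 without Lgr5+T8hi replicate 2 and 0.60 with only the 4 Lgr5+ libraries in the fit. Sfrp1, a decoy that binds Wnt proteins (chromosome 8, 23411383 to 23449632), was at 419 and 328 CPM in Lgr5+T8hi against 220 and 144 CPM in Lgr5+T8- libraries (1.06 ± 0.10, edgeR adjusted p = 6.45e-05). Its relatives were higher too, Sfrp2 at 56.6 and 61.7 CPM against 27.8 and 25.1 CPM (1.15 ± 0.11, edgeR adjusted p = 5.42e-05), Sfrp5 by 2.15 ± 0.24 and Sfrp4 by 1.91 ± 0.26 (edgeR adjusted p = 1.79e-04 and 6.95e-04). No inhibitor was lower (0 in edgeR and limma-voom, 1 by DESeq2, 2 at an unadjusted p under 0.05 in edgeR), but 2 were without either Lgr5-T8- library and 1 without Lgr5+T8- replicate 1. Sfrp2 and Sfrp4 are also made by fibroblasts, whose markers rose in these libraries. Of 40 Wnt ligands, receptors and targets 3 were higher (7.50%, against 7.27% of all genes tested) and 5 lower (12.5%, against 2.17%). Their median was -0.06, against -0.05 over all genes tested. The ligand Wnt10a was at 48.5 and 54.6 CPM against 72.7 and 103 CPM (-0.75 ± 0.12, edgeR adjusted p = 0.00245), and the receptor Fzd4 at 12 and 16.1 CPM against 6.93 and 7.10 CPM (0.98 ± 0.14, edgeR adjusted p = 8.06e-04). The call of Wnt10a was lost without Lgr5+T8hi replicate 2 (0.0658). The count of lower Wnt genes was 3 without Lgr5-T8hi replicate 1, 2 without Lgr5+T8hi replicate 1, 1 with Lgr5+T8- replicate 2 left out and 0 with Lgr5+T8hi replicate 2 left out, and that of higher ones was 5 without Lgr5+T8- replicate 1 and 1 without either replicate 2 of the Lgr5+ groups.

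In the Notch pathway 6 of 20 genes were higher (30.0%, against 7.27% of all genes tested), with a median of 0.18. Notch3, a receptor also used as a pericyte marker, was at 58.8 and 65.2 CPM in Lgr5+T8hi against 18.1 and 17.8 CPM in Lgr5+T8- libraries (1.79 ± 0.14, edgeR adjusted p = 3.54e-05), and its target Heyl at 5.28 and 5.29 CPM against 2.30 and 1.36 CPM (1.54 ± 0.22, edgeR adjusted p = 8.06e-04). The count was 2 higher and 1 lower without Lgr5+T8- replicate 2, 3 higher without Lgr5+T8hi replicate 2, and included 1 lower gene without Lgr5-T8- replicate 2. Among 37 TGF-beta and BMP genes 8 were higher (21.6%) and 1 lower (2.70%, against 2.17% of all genes tested), with a median of 0.05. The antagonist Chrdl1 was at 7.81 and 6.66 CPM against 1.76 and 1.12 CPM (2.31 ± 0.22, edgeR adjusted p = 6.10e-05), the ligand Bmp2 at 13.8 and 8.17 CPM against 6.33 and 3.63 CPM (1.14 ± 0.16, edgeR adjusted p = 7.34e-04), and the latency protein Ltbp1 at 24.0 and 24.8 CPM against 13.0 and 13.7 CPM (0.87 ± 0.11, edgeR adjusted p = 4.46e-04). The higher count was 5 without Lgr5+T8hi replicate 2.

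The insulin-like growth factor axis had 5 higher (31.2%) and 1 lower (6.25%) gene of 16 (median 0.14). Its binding proteins went in opposite directions. Igfbp2 was at 43.5 and 35.2 CPM in Lgr5+T8hi against 88.0 and 72.7 CPM in Lgr5+T8- libraries (-1.03 ± 0.12, edgeR adjusted p = 2.16e-04). Igfbp4 was at 68.7 and 75.5 CPM against 34.8 and 40.8 CPM (0.94 ± 0.09, edgeR adjusted p = 5.56e-05), and Igfbp6 at 43.5 and 40.1 CPM against 29.6 and 18.0 CPM (0.84 ± 0.13, edgeR adjusted p = 0.00148). The binding proteins of basal cells with high levels did not pass, Igfbp5 at 5635 and 5937 CPM against 5273 and 5097 CPM (0.16 ± 0.10, edgeR adjusted p = 0.412) and Igfbp3 at 1133 and 1540 CPM against 1158 and 2054 CPM (-0.23 ± 0.13, edgeR adjusted p = 0.345). FGF and ErbB genes were 12.5% higher and 4.17% lower by share of members, and Hedgehog genes 30.8% higher. Over all genes tested the shares were 7.27% higher and 2.17% lower. Of 24 FGF and ErbB genes 3 were higher and 1 lower (median 0.02), with Areg, an ErbB ligand, as the leading one; 1 was higher without either replicate 2 of the Lgr5+ groups. Hedgehog genes were higher in 4 of 13 cases (median 0.20), a count of 2 without replicate 1 of either Lgr5+ group, 1 without Lgr5+T8- replicate 2 and 0 without Lgr5+T8hi replicate 2.

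Matrix genes changed in both directions within the basement membrane. Of that list 17.9% of members were higher and 7.14% lower, against 7.27% and 2.17% of all genes tested. Lama1, the laminin alpha 1 chain (chromosome 17, 67697127 to 67822645), was at 49.0 and 68.7 CPM in Lgr5+T8hi against 97.3 and 140 CPM in Lgr5+T8- libraries (-1.01 ± 0.12, edgeR adjusted p = 1.89e-04). Lama2, the alpha 2 chain, was at 13.3 and 16.4 CPM against 3.40 and 3.23 CPM (2.16 ± 0.26, edgeR adjusted p = 8.06e-04). The linker proteins Nid1 and Nid2 rose by 0.66 ± 0.11 and 1.02 ± 0.12 (edgeR adjusted p = 0.00253 and 2.16e-04). In total 5 of 28 basement membrane genes were higher and 2 lower (median -0.05), and 7 were lower without either Lgr5-T8- library and 1 without Lgr5-T8hi replicate 1 or any 1 of the Lgr5+ libraries. Of 31 matrix-remodelling genes 16 were higher (51.6%) and 2 lower, with a median of 0.44. The collagen cross-linking enzyme Lox was at 19.9 and 15.1 CPM against 7.75 and 5.94 CPM (1.36 ± 0.13, edgeR adjusted p = 6.92e-05), the protease Mmp3 at 7.93 and 8.32 CPM against 2.17 and 2.27 CPM (1.87 ± 0.18, edgeR adjusted p = 6.92e-05), and the protease Adamts5 at 99.5 and 61.6 CPM against 56.3 and 33.8 CPM (0.84 ± 0.09, edgeR adjusted p = 1.54e-04). The higher count was 10 without Lgr5+T8hi replicate 2, and 9 when replicate 2 of Lgr5+T8- was left out. Fibroblasts make many of these proteins, and the part of the higher fibroblast markers (14 of 16) was not tested.

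Among 26 tetraspanins other than Tspan8, 7 were higher (26.9%, against 7.27% of all genes tested) and 2 lower (7.69%, against 2.17%), with a median of 0.15. Tspan7 was at 45.9 and 53.2 CPM in Lgr5+T8hi against 25.1 and 35.2 CPM in Lgr5+T8- libraries (0.73 ± 0.10, edgeR adjusted p = 5.45e-04). Upk1b, a uroplakin of the same family, was at 1.87 and 3.18 CPM against 5.07 and 6.5 CPM (-1.22 ± 0.19, edgeR adjusted p = 0.00123). The leukocyte tetraspanin Cd53 was at 3.37 and 3.55 CPM against 0.472 and 0.638 CPM (2.65 ± 0.31, edgeR adjusted p = 2.21e-04). The higher count was 2 without Lgr5+T8hi replicate 1 and 3 without either replicate 2 of the Lgr5+ groups.

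Of 39 axon guidance genes 7 were higher (17.9%, against 7.27% of all genes tested) and 3 lower (7.69%, against 2.17%), with a median of -0.02. Ntn1, the guidance cue netrin 1, was at 34.6 and 40.4 CPM in Lgr5+T8hi against 14.5 and 12.5 CPM in Lgr5+T8- libraries (1.46 ± 0.13, edgeR adjusted p = 3.64e-05). The semaphorin co-receptor Nrp2 was at 37.0 and 35.1 CPM against 16 and 11.6 CPM (1.4 ± 0.14, edgeR adjusted p = 9.69e-05), and the ephrin receptor Epha4 at 66.1 and 57.5 CPM against 92.6 and 86.7 CPM (-0.54 ± 0.09, edgeR adjusted p = 0.00234). The groups did not overlap in these 3 genes. Of all genes tested, 18.2% had both Lgr5+T8hi libraries above both Lgr5+T8- libraries, and 18.2% had both below. Potassium and calcium channel genes were higher in 10 (27.8%) and lower in 4 (11.1%) of 36 cases (median -0.01). Kcnmb1 and Ryr3 were the lowest, and the calcium pump Atp2a3 was at 12.7 and 21.2 CPM against 4.19 and 3.19 CPM (2.15 ± 0.24, edgeR adjusted p = 4.78e-04). Among 29 eye absent, sine oculis and homeobox factors 7 were higher (24.1%) and 3 lower (10.3%), with a median of 0.12. The developmental factors Eya1 and Dlx3 were at 0.750 and 0.945 CPM (Eya1) and 0.663 and 0.643 CPM (Dlx3) in Lgr5+T8hi, against 3.28 and 3.95 CPM and 2.87 and 2.87 CPM in Lgr5+T8- libraries. They changed by -2.09 ± 0.24 and -2.13 ± 0.26 (edgeR adjusted p = 1.79e-04 and 2.87e-04). The guidance counts were 3 higher and 1 lower without Lgr5+T8hi replicate 2 and 4 higher without Lgr5+T8hi replicate 1 or Lgr5+T8- replicate 2, and 5 guidance and 8 channel genes were lower without either Lgr5-T8- library, and 2 channel genes were lower without Lgr5+T8hi replicate 1 or Lgr5+T8- replicate 2. Higher channel genes numbered 5 or 6 without any 1 of the Lgr5+ libraries, and higher homeobox factors 2 or 3 without either Lgr5+T8hi library or replicate 2 of Lgr5+T8-.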

How the data were processed

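RNA from sorted cells was sequenced single-end. The authors deposited unnormalized gene counts, 27164 Entrez identifiers a library, beside gene lengths, per the file headers. Tools named in the submitters' processing notes are limma 3.24.14, edgeR 3.10.2, featureCounts and CASAVA 1.8.2, with the build mm10 (GRCm38). The aligner and the use of strand in counting are not given in the sources used here, so overlapping genes and near-identical copies are uncertain. Symbols, coordinates and promoter windows came from RefSeq GRCm38.p6, and 25260 identifiers matched.

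The counts of all 8 libraries were fitted with edgeR 4.0.16 (quasi-likelihood F-test, robust, TMM, filterByExpr with a minimum count of 10, population plus batch, 3 residual degrees of freedom). The fit was also run on counts simulated with its own estimates of spread. Such counts cannot show whether the spread between replicates is only technical. Tests were two-sided, with Benjamini-Hochberg adjustment over 16526 genes. CPM used TMM-adjusted library sizes. Batch was blocked because the labels state it and equate it with the replicate number; deviations of same-numbered Lgr5+ libraries from their group means correlated at 0.480 across genes. Replicates differed beyond sampling noise, with a chi-square per degree of freedom of 36.0 in Lgr5+T8hi and 46.5 in Lgr5+T8- pairs.

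The comparison, gene lists and named genes were chosen with earlier results of these data known. Named genes were Tspan8 and Lgr5, the 12 highest and 12 lowest changes among called genes of at least 5 CPM with the same sign in both batches (predicted and unnamed genes skipped), up to 6 members of each list by adjusted p, and set basal, luminal and cell-cycle genes. Lcn2 and genes named only for being at 0 or left out by the filter were chosen after their values were seen. Alternatives were no block, RLE or no normalization factors, other filters, DESeq2 1.42.0, limma-voom (limma 3.58.1), a threshold of 1.5-fold, only the 4 Lgr5+ libraries, and leaving out each library, after which the lone library of its group was assumed to vary like the others.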

Additional observations from a re-analysis of the deposited data

How the results depend on the processing

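Against 1201 higher and 359 lower genes with the batch block, all called genes that were still tested kept their direction under every alternative. The counts fell to 484 higher and 28 lower with no replicate block, where 32.4% of the calls were kept, and to 604 and 30 against a fold of 1.5 (edgeR glmTreat). They were 1299 and 251 with library totals only, 1205 and 299 with RLE, 1217 and 440 without a count filter, 1061 and 277 with at least 1 CPM in 2 of the 4 Lgr5+ libraries, 1041 and 309 with DESeq2, 1202 and 357 with limma-voom, and 1410 and 420 with only the 4 Lgr5+ libraries. With no replicate block 2 of 26 contractile and 0 of 44 proliferation genes were lower. In that fit 0 of 21 general luminal, 2 of 24 tight junction and 5 of 34 interferon-stimulated genes were higher, and 12 of 16 fibroblast markers. Against the fold of 1.5, in the same order of lists, the counts were 2, 0, 2, 3, 9 and 11. Leaving out 1 library gave 544 to 1457 higher and 83 to 733 lower genes; the cause was not tested. Of 104 named genes past the threshold, 63 stayed past it under every alternative and 85 under every alternative except no replicate block and the fold of 1.5; 19 fell short of it in at least 1 fit without a library, and none changed direction. With 2 libraries a group, a change near the threshold can be gained or lost through 1 library, and levels under about 0.120 CPM are at the limit of 3 counts.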
